A study of Homo sapiens with 18 samples.

Results

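The genes described here are 34 members of the pathways that make, sense, move and export cholesterol and fatty acids, taken by symbol from a list of known enzymes and regulators. Of the 34, 33 were matched to 1 Ensembl gene of the 63677 in the count table. ACACA, which encodes an acetyl-CoA carboxylase, has no expression value here because its identifier in the name table was not matched. ABCG1, a cholesterol exporter, had 0 to 3 reads in each library and fell below the filter on low counts, so 32 members were tested.

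Cholesterol is built from acetyl-CoA through mevalonate, squalene and lanosterol, and fatty acids are built from malonyl-CoA by fatty acid synthase and then lengthened and desaturated. SREBP transcription factors, the products of SREBF1 and SREBF2, turn on both sets of genes when they leave the endoplasmic reticulum with their escort SCAP, and INSIG proteins hold that complex back when sterols are plentiful. LXR receptors respond to oxidised sterols and turn on genes that export cholesterol or limit its uptake. In many SREBP-responsive promoters the factor NF-Y binds a CCAAT box beside the SREBP site.

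RNA came from WM989, an established human melanoma cell line, so all libraries describe 1 line. Cells were given DMSO, the solvent control, or 4 µM EPZ5676, an inhibitor of the histone methyltransferase DOT1L, for 7 days. Each treatment had a bulk population and populations high or low for the surface receptors NGFR and EGFR, with 3 poly(A) libraries for each of the 6 groups. No label says that libraries of a group came from separate cultures, so the p-values measure the spread between these libraries, which may be technical.

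Levels are CPM, read counts relative to library sizes scaled with TMM factors. They are given as mean ± SD over 3 libraries, and differences as log2 fold changes ± standard error. Every adjusted p is from the quasi-likelihood test of edgeR, with Benjamini-Hochberg adjustment over 18121 genes, and a gene below 0.05 is called. Libraries held 13383741 to 26311674 gene counts. In bulk RNA, fewer cells that express a gene and less RNA per cell cannot be told apart.

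Some libraries stood apart. DMSO bulk replicate 1 lay at -30.5 on the first principal component, toward the high sort, while DMSO bulk replicates 2 and 3 lay at 45.1 and 44.2. Its NGFR level was 220.0 CPM, against 12.6 and 9.23 CPM. Because all groups share 1 estimate of the spread, the number of members called in each comparison is also given without that library. In 6 libraries, 5 of them EPZ5676 libraries, the share of reads outside annotated features was 18.9% to 28.7%, and in the other 12 it was 12.8% to 15.2%. NGFR was at 536 to 767 CPM in the 6 high libraries and at 0.638 to 6.85 CPM in the 6 low ones, as the sort labels say.

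Promoters are shown first for 6 members, each with at least 1 CCAAT box. With only 1 member shown that was lower in high cells, higher and lower members are not compared for their boxes. Among members called between the DMSO sorts, windows of NPC1, ABCA1, FADS1 and FADS2 (higher) and SREBF1 and SCAP (lower) held 0 boxes. RefSeq (GRCh38.p14) gave 40 start sites for 29 members, ACACA included, and the 250 bases before each start were searched on both strands. FASN and SQLE were not among these members. Of these 40 windows, 23 (57.5%) held CCAAT, against 32% of the 35116 promoter windows of the same length. Some genes have several windows, which can overlap and share a box, and by gene 20 of 29 members held CCAAT. In the sequences below, capitals mark CCAAT or its complement ATTGG, and in SREBF2 also the SREBP site TCACNCCAC. HMGCS1 (chr5:43313413-43313662, minus strand), MSMO1 (chr4:165327419-165327668, plus), INSIG1 (chr7:155297628-155297877, plus) and STARD4 (chr5:111512536-111512785, minus) were higher in high cells. SCD (chr10:100346983-100347232, plus) was lower. SREBF2 (chr22:41832855-41833104, plus) is shown for its SREBP site. These 6 were chosen after their values were seen.
HMGCS1: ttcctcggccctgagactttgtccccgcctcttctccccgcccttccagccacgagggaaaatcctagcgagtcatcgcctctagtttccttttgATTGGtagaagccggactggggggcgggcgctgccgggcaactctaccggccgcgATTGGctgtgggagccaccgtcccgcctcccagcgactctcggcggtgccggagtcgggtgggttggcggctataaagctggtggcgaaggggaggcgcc
MSMO1: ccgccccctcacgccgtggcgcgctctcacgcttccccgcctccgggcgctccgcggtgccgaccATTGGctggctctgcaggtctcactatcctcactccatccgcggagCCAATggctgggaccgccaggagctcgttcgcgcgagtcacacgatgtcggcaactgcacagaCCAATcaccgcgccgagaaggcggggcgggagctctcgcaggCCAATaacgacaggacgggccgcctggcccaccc
INSIG1: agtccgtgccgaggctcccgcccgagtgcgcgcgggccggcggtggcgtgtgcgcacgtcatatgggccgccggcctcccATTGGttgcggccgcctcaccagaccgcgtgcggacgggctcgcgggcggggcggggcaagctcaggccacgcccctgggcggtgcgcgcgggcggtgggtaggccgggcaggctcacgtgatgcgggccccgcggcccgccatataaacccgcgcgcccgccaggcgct
STARD4: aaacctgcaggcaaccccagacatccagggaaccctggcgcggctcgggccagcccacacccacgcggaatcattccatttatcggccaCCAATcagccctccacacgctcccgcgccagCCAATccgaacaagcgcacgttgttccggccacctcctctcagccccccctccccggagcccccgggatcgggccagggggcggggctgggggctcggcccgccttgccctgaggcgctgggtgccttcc
SCD: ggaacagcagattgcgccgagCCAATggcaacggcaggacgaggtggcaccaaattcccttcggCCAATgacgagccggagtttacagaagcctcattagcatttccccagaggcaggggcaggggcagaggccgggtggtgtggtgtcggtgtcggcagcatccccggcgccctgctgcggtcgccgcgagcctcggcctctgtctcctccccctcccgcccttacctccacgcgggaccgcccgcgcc
SREBF2: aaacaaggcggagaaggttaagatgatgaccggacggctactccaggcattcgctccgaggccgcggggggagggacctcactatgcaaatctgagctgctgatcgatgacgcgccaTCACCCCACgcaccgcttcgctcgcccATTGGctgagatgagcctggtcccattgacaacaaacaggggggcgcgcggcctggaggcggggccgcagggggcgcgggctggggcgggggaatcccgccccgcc

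HMGCS1, STARD4 and SCD each held 2 CCAAT boxes, MSMO1 held 4 and INSIG1 and SREBF2 held 1. HMGCS1 has another RefSeq start, whose window (chr5:43313182-43313431, minus) held 0 boxes. The SREBP site was found in 1 of 40 member windows, at base -133 of SREBF2, and in 0.883% of all windows. An LXR element, searched as AGGTCA repeated with 4 bases between, was found in 0 member windows and in 0.0142% of all windows. A match describes these letters only, and no match says only that they are absent from this window.

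High and low DMSO cells were compared to see which of these genes differed between cells with much and little NGFR and EGFR. Of 18 cholesterol synthesis enzymes 7 were higher in high cells and 2 lower, the 4 regulators split 2 and 2, the 2 transport and 3 tested LXR members were higher, and the most abundant fatty acid genes, FASN and SCD, were lower. Of 32 members, 16 were higher and 6 lower, with a median log2 difference of 0.33. Over all tested genes 29.6% were higher and 26.7% lower, with a median of 0.027. Without DMSO bulk replicate 1, 17 members were higher and 6 lower (30.3% and 27.1% of all genes). The 22 calls were shared and SC5D, a sterol desaturase, was added.

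**Figure D1:**
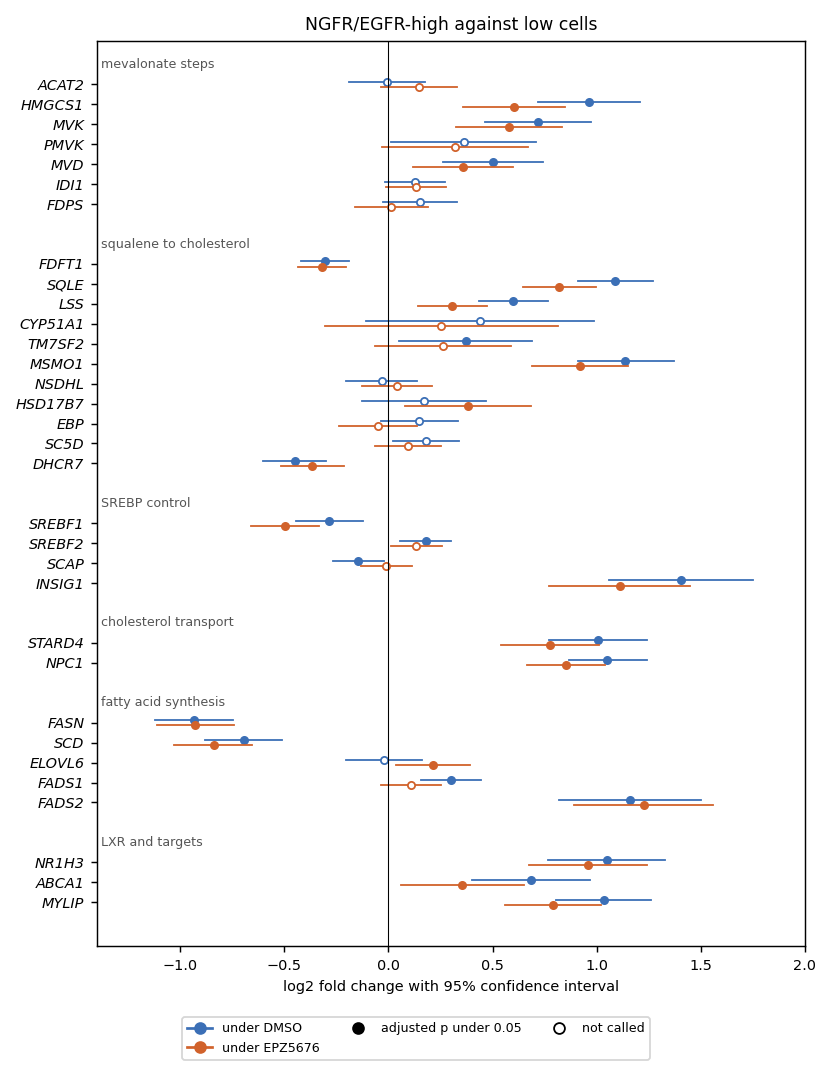
Log2 fold change of each tested member in high against low cells (horizontal axis), under DMSO in blue and under EPZ5676 in orange, with 95% confidence intervals; filled points are called. INSIG1 lies farthest to the right (1.41 under DMSO) and FASN farthest to the left (-0.93).

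In the mevalonate steps, 3 of 7 members were higher and 0 lower under DMSO. HMGCS1, which makes HMG-CoA, stood at 131 ± 3.40 CPM in high and 67.2 ± 3.22 CPM in low cells (log2 fold change 0.96 ± 0.117, adjusted p = 2.54e-06). The kinase gene MVK differed by 0.72 ± 0.122 and the decarboxylase gene MVD by 0.50 ± 0.115. ACAT2, PMVK, IDI1 and FDPS were not called, with log2 differences of -0.01, 0.36, 0.13 and 0.15. IDI1 is the isomerase and FDPS the prenyl synthase of this branch.

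From squalene to cholesterol, 4 of 11 members were higher and 2 lower. SQLE, the squalene epoxidase, stood at 211, 226 and 216 CPM in the DMSO high libraries and at 102, 98.0 and 107 CPM in the DMSO low libraries. Every high library was above every low one, by 2.13-fold on average (1.09 ± 0.0852, adjusted p = 2.76e-09). MSMO1, a sterol methyl oxidase, stood at 66.1, 68.2 and 66.8 CPM in high and at 31.3, 30.1 and 30.0 CPM in low cells. These groups did not overlap either (1.14 ± 0.11, adjusted p = 5.19e-08). Over all genes, 31.6% were higher and 28.7% lower without overlap between these sorts.

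LSS, the lanosterol synthase, was higher by 0.60 ± 0.0798. TM7SF2, a sterol reductase, was higher by 0.37 ± 0.155 (adjusted p = 0.0463), a call kept in 6 of the 18 fits that left out 1 library and in 5 of 13 other alternatives (adjusted p up to 0.178). The lower members were FDFT1, the squalene synthase, and DHCR7, which makes cholesterol from 7-dehydrocholesterol. DHCR7 stood at 289, 244 and 288 CPM in high and at 389, 382 and 352 CPM in low cells (-0.45 ± 0.0736, adjusted p = 1.96e-05). FDFT1 stood at 308 ± 16.5 against 379.6 ± 8.50 CPM (-0.30 ± 0.0553, adjusted p = 7.06e-05). CYP51A1, NSDHL, HSD17B7, EBP and SC5D were not called, and for CYP51A1 the standard error was 0.255.

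Among the regulators, INSIG1 had the largest log2 difference of the tested members. It stood at 404 ± 6.78 CPM in DMSO high and 152 ± 11.8 CPM in DMSO low cells, 2.65-fold higher (1.41 ± 0.159, adjusted p = 4.37e-06). The SREBP genes differed in opposite directions: SREBF2 was higher (0.18 ± 0.0592, adjusted p = 0.0138) and SREBF1 lower (-0.29 ± 0.0774, adjusted p = 0.00328). The SREBF2 call was lost without DMSO low replicate 1 (adjusted p = 0.0521) and kept in 10 of 13 other alternatives, not with library size alone, no filter on low counts or without the 6 libraries over 16% of reads on no feature (adjusted p up to 0.127). SCAP was lower (-0.14 ± 0.0598, adjusted p = 0.0452), a call kept in 11 of the 18 fits that left out 1 library and in 7 of 13 other alternatives (adjusted p up to 0.189).

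Both transport members were higher. NPC1, which moves cholesterol out of lysosomes, stood at 168, 157 and 149 CPM in high and at 80.7, 73.9 and 74.2 CPM in low cells. The groups did not overlap (1.05 ± 0.0896, adjusted p = 8.03e-09). STARD4, a cytosolic sterol carrier, stood at 68.6 ± 7.33 against 34.2 ± 3.75 CPM (1.01 ± 0.112, adjusted p = 3.36e-07).

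Fatty acid genes went both ways. FASN, the fatty acid synthase, stood at 1289, 1331 and 1354 CPM in high and at 2556, 2476 and 2557 CPM in low cells. Every high library was below every low one, with a 1.91-fold higher level in low cells (-0.93 ± 0.0877, adjusted p = 1.01e-07). SCD, which desaturates stearoyl-CoA, stood at 727, 685 and 671 CPM in high and at 1172, 1120.0 and 1085 CPM in low cells (-0.70 ± 0.0883, adjusted p = 2.17e-06).

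The desaturases of polyunsaturated fatty acids were higher in high cells, FADS2 at 20.3 ± 0.852 against 9.08 ± 0.548 CPM (1.16 ± 0.164) and FADS1 at 178 ± 13.5 against 145 ± 8.32 CPM (0.30 ± 0.0691). ELOVL6, an elongase, stood at 35.1 ± 3.59 and 35.6 ± 3.13 CPM and was not called.

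All 3 tested LXR members were higher. NR1H3, the gene of LXR alpha, stood at 21.6 ± 2.62 against 10.4 ± 1.96 CPM (1.05 ± 0.137). MYLIP, a ubiquitin ligase, stood at 52.8 ± 1.97 against 25.8 ± 1.84 CPM (1.03 ± 0.11). ABCA1, which exports cholesterol, stood at 14.02 ± 2.39 against 8.70 ± 1.102 CPM (0.69 ± 0.136, adjusted p = 0.000175).

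**Figure D2:**
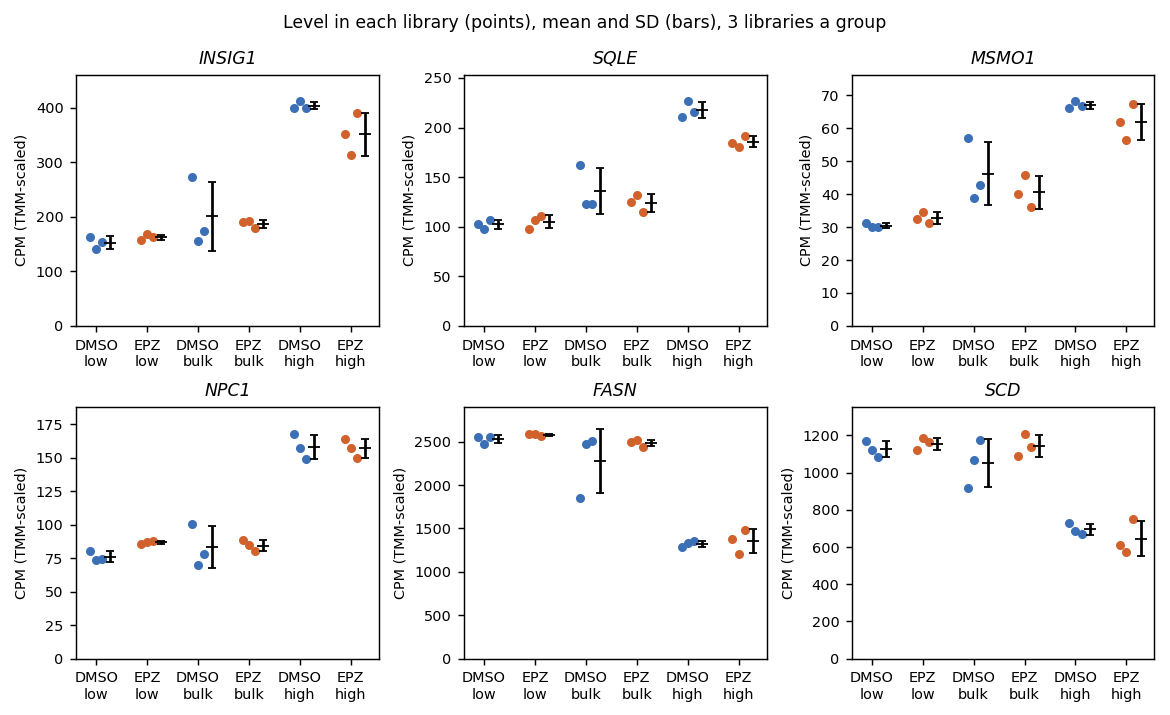
CPM of 6 members (vertical axes) in each library, DMSO in blue and EPZ5676 in orange, with mean and SD as black bars. INSIG1, SQLE and NPC1 are highest and FASN and SCD lowest in the 6 high libraries. For MSMO1, DMSO bulk replicate 1 (56.997 CPM) lies above EPZ5676 high replicate 2 (56.4 CPM).

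The order of levels also changed. Exon lengths were from GENCODE 29, while the annotation release of the counts is not given. Per kilobase of exon, FASN stood at 270 ± 4.95 CPM in DMSO low cells and SCD at 210 ± 8.16. They were followed by DHCR7 at 90.0 ± 4.78, FDFT1 at 73.0 ± 1.63 and INSIG1 at 41.7 ± 3.22. In DMSO high cells the level per kilobase was 141 ± 3.48 for FASN, 130 ± 5.45 for SCD and 111 ± 1.86 for INSIG1, ahead of DHCR7 at 65.8 ± 6.22 and FDFT1 at 59.1 ± 3.17. The libraries of DHCR7 and FDFT1 overlapped on this scale in high cells and not in low cells.

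Of 19 other genes of these pathways that were not members, 6 were higher and 7 lower under DMSO, with a median of 0.074. Over all genes 29.6% were higher and 26.7% lower, with a median of 0.027. SOAT1, which esterifies cholesterol, stood at 144 ± 9.09 CPM in high and 384 ± 3.98 CPM in low cells (-1.41 ± 0.131, adjusted p = 3.52e-07). INSIG2, like INSIG1 a retention protein of the SREBP complex, stood at 57.6 ± 3.09 against 33.5 ± 3.68 CPM (0.78 ± 0.0962).

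Markers of other states moved with the sort. All 5 melanocyte markers were lower in DMSO high cells, with a summed level of 1070 to 1260 CPM against 10900 to 11400 CPM in low cells. Of 7 tested fibroblast markers, 6 were higher and 1 (LUM) lower, and the 8 listed ones summed to 1070 to 1410 CPM against 72.3 to 75.4 CPM. Of 4 endothelial markers 2 were tested, and both were higher, VWF at 8.63 against 1.95 CPM and KDR at 3.16 against 0.686 CPM, while PECAM1 was at 0 in both sorts. Of 4 keratinocyte markers only KRT10 was tested, and it was higher (0.43, adjusted p = 0.000377), with KRT5 and KRT1 at 0 in both. Of 5 leukocyte markers 2 were tested and 0 called, with a sum of at most 2.11 CPM. The part of these differences in the members' values was not tested.

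DMSO bulk replicate 1 differed in the same direction as the sort. Of the 16 members higher in high cells, 14 were above both other DMSO bulk libraries in it, and of the 6 lower members 5 were below both. Over all genes called between these sorts the shares were similar, 84.3% of the 5355 higher genes and 83.3% of the 4844 lower ones, so the library as a whole lay that way. For INSIG1 it stood at 274 CPM, against 156 and 174 CPM. For FASN it stood at 1846 CPM, against 2472 and 2513 CPM.

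High and low cells were also compared after EPZ5676, to see how these genes differed with DOT1L inhibited. Of 32 members, 15 were higher and 5 lower in high cells, with a median of 0.26. Over all genes 25.8% were higher and 23.1% lower, with a median of 0.016. Without DMSO bulk replicate 1, 16 were higher and 5 lower (26.8% and 23.7% of all genes), the added call being SREBF2.

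SQLE, NPC1 and MSMO1 were again higher and FASN and SCD lower. SQLE stood at 184, 181 and 192 CPM in EPZ5676 high and at 97.9, 106 and 111 CPM in EPZ5676 low cells (0.82 ± 0.0849). NPC1 stood at 164, 157 and 150.1 CPM against 85.9, 87.1 and 88.1 CPM (0.85 ± 0.0892), and MSMO1 at 61.9, 56.4 and 67.3 CPM against 32.5, 34.6 and 31.1 CPM (0.92 ± 0.109). None of these groups overlapped, and over all genes 31.5% were higher and 28.8% lower without overlap. FASN stood at 1384, 1202 and 1479.7 CPM in high and at 2585, 2586 and 2570.0 CPM in low cells (-0.93 ± 0.0877). SCD stood at 611, 573 and 753 CPM against 1119.6, 1184 and 1162 CPM (-0.84 ± 0.0885).

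INSIG1 stood at 352 ± 39.1 against 163 ± 4.87 CPM (1.11 ± 0.158), and SREBF1 was lower, at 158, 132 and 166 CPM in high and 216, 206 and 222 CPM in low cells (-0.50 ± 0.0777). The remaining higher members were HMGCS1, MVK, MVD, LSS, STARD4, FADS2, NR1H3, ABCA1 and MYLIP, between 0.31 for LSS and 1.23 for FADS2. FDFT1 and DHCR7 were again lower, at -0.32 ± 0.0553 and -0.37 ± 0.0735. HSD17B7, a sterol ketoreductase (0.38 ± 0.145), and ELOVL6 (0.21 ± 0.0863) were called here. Over the 18 fits that left out 1 library, HSD17B7 kept its call in 14 (adjusted p up to 0.105), ELOVL6 in 8 (up to 0.179), ABCA1 (0.35 ± 0.143) in 8 (up to 0.177) and MVD (0.36 ± 0.115) in 17, the exception being EPZ5676 high replicate 3 (adjusted p = 0.0656). Over 13 other alternatives HSD17B7 kept its call in 10, ELOVL6 in 7, ABCA1 in 6 and MVD in 12. TM7SF2, SREBF2, SCAP and FADS1 were called under DMSO but not here. Of the 19 other pathway genes, 6 were higher and 6 lower (25.8% and 23.1% of all genes). SOAT1 differed by -1.30 ± 0.13 and INSIG2 by 0.62 ± 0.0971. Both comparisons rest on different libraries of 1 line.

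Of the 3 EPZ5676 high libraries, 2 were among those with over 16% of reads on no feature, and so was 1 of the 3 low ones. Without all 6 such libraries, 1 EPZ5676 high library was left, assumed to vary like the other groups. No called member reversed its direction in that fit. The calls of LSS, MVK, MVD, HSD17B7, ELOVL6, ABCA1, FDFT1, DHCR7 and SREBF1 were not kept in it.

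EPZ5676 was compared with DMSO in high cells to ask which members DOT1L inhibition changed in the sorted population. Of 32 members, 1 was higher and 2 lower, against 1.95% and 1.04% of all genes. The median member difference was -0.090, with 23 of 32 negative, against a median of -0.0021 over all genes. SREBF1 and ABCA1 fell and ELOVL6 rose.

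ABCA1 stood at 16.4, 11.7 and 13.97 CPM in DMSO high and at 9.17, 7.86 and 7.70 CPM in EPZ5676 high libraries. Every treated library was below every control (log2 difference -0.76 ± 0.137, adjusted p = 0.00313). The treated levels overlapped those of DMSO low cells, at 9.71, 7.53 and 8.84 CPM. They lay above those of EPZ5676 low cells, at 6.09, 6.64 and 6.52 CPM.

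SREBF1 stood at 205, 197 and 204 CPM in DMSO high and at 158, 132 and 166 CPM in EPZ5676 high libraries (-0.41 ± 0.0777, adjusted p = 0.00508). The groups did not overlap, which held for 12.1% of all genes in this direction. SREBF1 was lower in DMSO high than in DMSO low cells, where it stood at 243, 244 and 251 CPM. The treated high libraries were thus farther from the DMSO low level than the controls were. EPZ5676 low libraries stood at 216, 206 and 222 CPM.

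ELOVL6 stood at 35.2, 31.5 and 38.7 CPM in DMSO high and at 39.6, 45.8 and 47.0 CPM in EPZ5676 high libraries (0.33 ± 0.087, adjusted p = 0.0398). The nearest libraries of the groups, 38.7 and 39.6 CPM, were close. Over the 18 fits that left out 1 library, the call was kept in 7, with adjusted p from 0.00371 to 0.185. It was kept in 11 of 13 other alternatives, not with estimation that was not robust or without the 6 libraries (adjusted p up to 0.356).

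**Figure D3:**
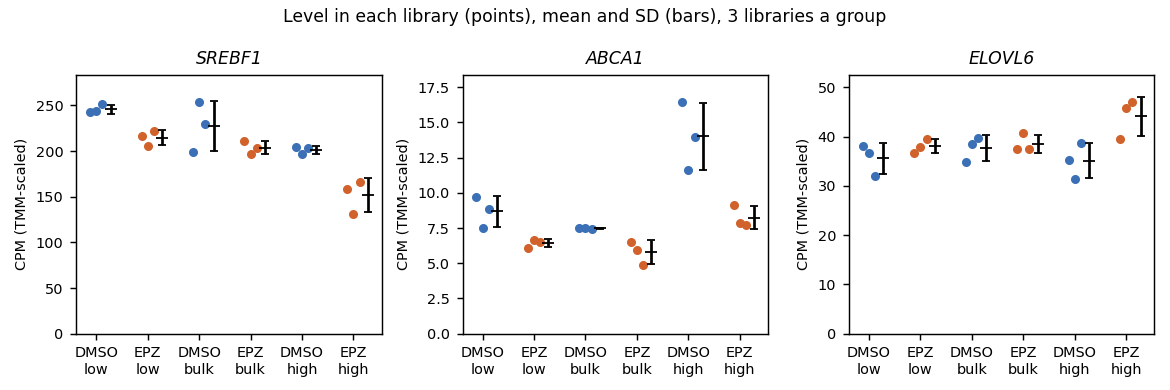
CPM of SREBF1, ABCA1 and ELOVL6 (vertical axes) in each library, DMSO in blue and EPZ5676 in orange, with mean and SD as black bars. In high cells the EPZ5676 libraries lie below the DMSO libraries for SREBF1 and ABCA1 and above them for ELOVL6.

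The number of calls depended on DMSO bulk replicate 1, which enters the shared estimate of the spread. Without it, 2 members were higher and 8 lower in EPZ5676 high cells (5.85% and 4.89% of all genes). The 3 calls were shared. The added lower members were SQLE (-0.23 ± 0.0537), LSS (-0.29 ± 0.0488), SREBF2 (-0.16 ± 0.0485), INSIG1 (-0.20 ± 0.0632), STARD4 (-0.33 ± 0.0745) and MYLIP (-0.29 ± 0.0767), and FADS2 was added as higher (0.36 ± 0.091).

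Each of these differed without overlap between the libraries. In this comparison 12.7% of all genes were higher and 12.1% lower without overlap, and these members had been picked by a call on the same libraries. LSS stood at 225, 231 and 236 CPM in DMSO high and at 200.1, 174 and 192 CPM in EPZ5676 high cells. FADS2 stood at 20.8, 20.7 and 19.3 CPM against 25.9, 26.5 and 25.8 CPM. All 6 added lower members were higher in DMSO high than in DMSO low cells, and their treated means lay between those groups, as for INSIG1 at 352 ± 39.1 CPM between 404 ± 6.78 and 152 ± 11.8 CPM. FADS2 lay farther from the low level after treatment. Both comparisons use the same DMSO high libraries.

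The synthesis enzymes FASN and SCD were not called in either fit. FASN differed by 0.03 in EPZ5676 high cells, with a 95% interval from -0.15 to 0.22, and SCD by -0.11, from -0.29 to 0.079. Of the 19 other pathway genes, ME1, a malic enzyme that supplies NADPH, was lower at 100.3 ± 8.10 against 139 ± 15.3 CPM (-0.47 ± 0.117, adjusted p = 0.0402). INSIG2 (-0.34 ± 0.0953) had the next smallest p (adjusted p = 0.0527). Without DMSO bulk replicate 1, ME1, INSIG2 and ACSS2, an acetyl-CoA synthetase, were lower.

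Some marker levels differed with treatment in high cells, while the no-feature shares overlapped. These shares were 14.5%, 12.9% and 21.4% in DMSO high and 18.9%, 21.2% and 12.8% in EPZ5676 high libraries. EPZ5676 high replicate 3, with 12.8% of reads on no feature, stood at 7.70 CPM for ABCA1, 166 CPM for SREBF1 and 47.0 CPM for ELOVL6, and DMSO high replicates 1 and 2, at 14.5% and 12.9%, stood at 16.4 and 11.7, 205 and 197, and 35.2 and 31.5 CPM. With the share as a covariate, the log2 difference was -0.76 for ABCA1 (adjusted p = 0.00566) and -0.41 for SREBF1 (adjusted p = 0.00882). Leaving out the 6 libraries left 1 EPZ5676 high library. In that fit ABCA1 differed by -0.85, SREBF1 by -0.26 and ELOVL6 by 0.51, and their calls were not kept. The melanocyte markers summed to 1630 to 1780 CPM in EPZ5676 high against 1070 to 1260 CPM in DMSO high libraries, with 1 of 5 called higher. The fibroblast markers summed to 602 to 742 against 1070 to 1410 CPM, mostly through COL1A1 at 433 against 929 CPM (adjusted p = 0.566). Of the 7 tested, 3 had positive and 4 negative differences, and LUM alone was called, as higher (52.6 against 31.7 CPM, adjusted p = 0.00828). Without DMSO bulk replicate 1, 4 of 5 melanocyte markers were called higher. Of the 7 fibroblast markers tested, 2 were then higher and 2 lower, against 5.85% and 4.89% of all genes. NGFR was at 645 to 767 against 536 to 616 CPM. The part of these markers in the members' values was not tested.

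In bulk cells 0 members were called, against 0.497% of all genes higher and 0.232% lower. The median member difference was -0.10, against -0.011 over all genes. By edgeR 4 members had an unadjusted p under 0.05, all lower (12.3% of all genes in either direction), and DESeq2 and limma-voom also called 0. Without DMSO bulk replicate 1, the median member difference was -0.0081, against 0.0046 over all genes. By edgeR 3 members were then higher and 3 lower at an unadjusted p under 0.05 (15.1% of all genes in either direction). In that fit SREBF1 alone was called, as lower (-0.25 ± 0.066, adjusted p = 0.0351), against 1.98% of all genes higher and 0.953% lower. SREBF1 stood at 254 and 229 CPM in the other DMSO bulk libraries and at 211, 197 and 204 CPM in EPZ5676 bulk libraries.

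In low cells 0 members were called, against 0.712% higher and 0.326% lower over all genes. The median was 0.032, against 0 over all genes. By edgeR 2 members were higher and 2 lower at an unadjusted p under 0.05 (12% of all genes in either direction), and DESeq2 and limma-voom called 0. ABCA1 had the smallest p, at 6.09, 6.64 and 6.52 CPM in EPZ5676 low against 9.71, 7.53 and 8.84 CPM in DMSO low libraries (-0.43 ± 0.141, adjusted p = 0.166). Its groups did not overlap, which held for 11.5% of all genes in this direction, but the difference did not pass the test. Without DMSO bulk replicate 1, NPC1 alone was higher (0.19 ± 0.0568, adjusted p = 0.0423), against 3.01% and 2.14% of all genes.

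**Figure D4:**
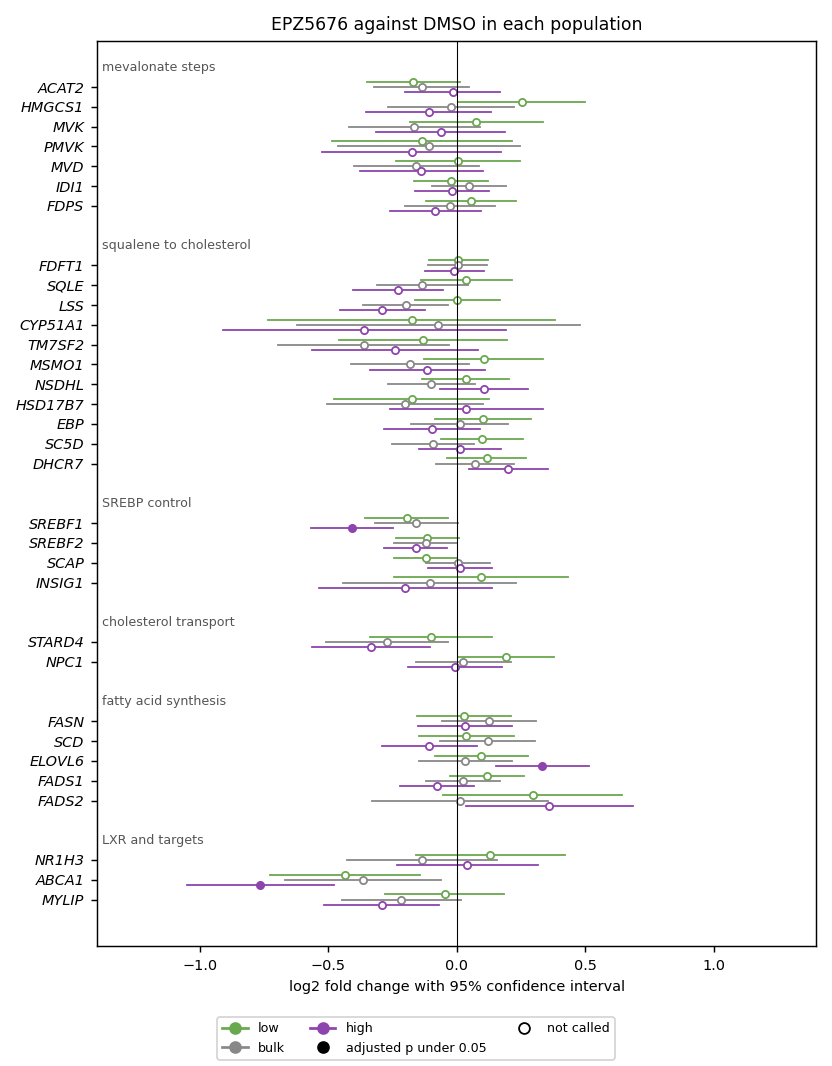
Log2 fold change of each tested member in EPZ5676 against DMSO cells (horizontal axis), in low (green), bulk (grey) and high (purple) populations, with 95% confidence intervals; filled points are called. ABCA1 is negative in all 3 populations and is called in high cells.

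SREBF1 differed by -0.41, -0.19 and -0.16 and ABCA1 by -0.76, -0.43 and -0.37 on the log2 scale in high, low and bulk cells. Whether the treatment effect differed between high and low cells was tested as an interaction. In it 0 members were called, against 0.204% of all genes higher and 0.116% lower, and the interaction was -0.21 ± 0.11 for SREBF1 (adjusted p = 0.495) and -0.33 ± 0.197 for ABCA1 (adjusted p = 0.567). By edgeR 3 members were lower at an unadjusted p under 0.05 (11.1% of all genes in either direction), and DESeq2 and limma-voom called 0.

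Without DMSO bulk replicate 1, 3 members had a lower effect in high than in low cells, against 3.09% of all genes higher and 2.61% lower. They were the enzymes HMGCS1 (-0.36 ± 0.106, adjusted p = 0.0442), SQLE (-0.27 ± 0.0766, adjusted p = 0.0309) and LSS (-0.29 ± 0.0691, adjusted p = 0.00828). HMGCS1 stood at 131 ± 3.40 and 122 ± 13.8 CPM in DMSO and EPZ5676 high cells, respectively. In low cells it stood at 67.2 ± 3.22 and 80.1 ± 6.12 CPM. For these 3 enzymes the gap between high and low cells was thus smaller under EPZ5676 in that fit.

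Several members share exons with other genes, so their counts are less certain. The strand setting of the counting is not given in the sources used here, and reads of a gene and its antisense partner cannot then be told apart. In GENCODE 29, FADS1 and FADS2 overlap each other on opposite strands, and MVK, ACAT2, SREBF1, NPC1 and NR1H3 overlap a protein-coding gene on the opposite strand. HMGCS1, IDI1, FDPS, FDFT1, LSS, CYP51A1, SREBF2 and STARD4 overlap an antisense or other noncoding gene on the opposite strand. CYP51A1 shares most of its exon sequence with another gene on the same strand, and FDPS, HSD17B7, SCD, FADS2 and CYP51A1 have pseudogenes.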

How the data were processed

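The authors deposited raw counts per Ensembl gene for 18 poly(A) libraries. The submitters' processing notes name STAR, HTSeq and hg19. Versions, annotation release and strand setting are not given in the sources used here. The 5 HTSeq summary lines per library were left out of library sizes and tests; reads on no feature made up 12.803% to 28.653% of a library. Each library held 13383741 to 26311674 gene counts, and 0 pairs of libraries were identical.

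The tests used edgeR 4.0.16 (R 4.3.3): filterByExpr, TMM factors, a robust quasi-likelihood fit of 6 group means over 18 libraries, and Benjamini-Hochberg adjustment over 18121 genes with a threshold of 0.05. Standard errors come from the quasi-likelihood F statistic. Principal components used log2 CPM with a prior count of 2. The members and lists were chosen with earlier results of these data known. All members are accounted for by role; values of every library are given for members called in a treatment comparison and for the 3 with the smallest p per direction among those called between sorts, and some others were chosen after their values were seen. The 19 other pathway genes are given by counts and their 2 smallest p.

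Alternatives were other scaling and filters, DESeq2 1.42.0, limma-voom (limma 3.58.1), estimation that was not robust, a fit on the compared groups alone, replicate number as a block, the no-feature share as a covariate, and leaving out libraries. The fit was tested on simulated data. Promoter sequences are RefSeq's on GRCh38.p14, searched 250 bases upstream; no coordinates on hg19 are given. Figures used Python 3.11.15 and matplotlib 3.10.9.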

Additional observations from a re-analysis of the deposited data

How the results depend on the processing

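No called member reversed its direction in any alternative run. Between the sorts, leaving out 1 library at a time left 15 to 17 members higher and 5 to 6 lower under DMSO, and 12 to 16 higher and 5 lower under EPZ5676. Without the 6 libraries with over 16% of reads on no feature, the EPZ5676 sorts had 9 members higher, 2 lower and 4176 genes called in all, with fewer samples in the fit.

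The other counts that moved were those of the treatment, and the cause was not tested. In high cells, members higher and lower numbered 3 and 4 with no filter on low counts, 0 and 2 with estimation that was not robust, 0 and 0 without the 6 libraries, 2 and 6 with only the groups compared, 3 and 8 without DMSO bulk replicate 1 with the no-feature share as covariate, and 2 and 1 without that library and the 6. Leaving out 1 library gave 0 to 2 higher and 2 to 8 lower. In low cells, the fit with only the groups compared gave 2 higher and 1 lower. It was 2 higher without DMSO bulk replicate 1 with the covariate and 1 higher without the 6 libraries, and 1 library at a time gave 0 to 1 higher. In bulk cells, 1 library at a time gave 0 to 1 lower. For the interaction, members lower numbered 3 with only the groups compared, 4 without DMSO bulk replicate 1 with the covariate, and 0 to 3 leaving out 1 library.

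All genes called in bulk cells numbered 132, but 440 with no filter, 290 with DESeq2, 50 with the covariate, 0 without the 6 libraries, 2 with only the groups compared, 418 without DMSO bulk replicate 1 with the covariate, and 39 to 550 leaving out 1 library. In high cells the count was 543, but 948 with no filter, 5 without the 6 libraries, 1413 with only the groups compared, 2009 without DMSO bulk replicate 1 with the covariate, and 200 to 2018 leaving out 1 library. In low cells it was 188, but 373 with no filter, 317 with DESeq2, 7 without the 6 libraries, 1028 with only the groups compared, 903 and 452 without DMSO bulk replicate 1 with the covariate or without the 6, and 60 to 968 leaving out 1 library. For the interaction it was 58, but 304 with no filter, 177 with DESeq2, 35 not robust, 0 without the 6 libraries, 863 with only the groups compared, 1024 and 284 without DMSO bulk replicate 1 with the covariate or without the 6, and 14 to 1072 leaving out 1 library. The highest of these 4 ranges is the fit without DMSO bulk replicate 1. The lowest is the fit without replicate 2 of the EPZ5676 bulk, high or low group, and for the interaction of the high group.

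No pairing by replicate number was seen: deviations of same-numbered libraries correlated by -0.34 to 0.296, and 5 of 15 correlated best with their own number. With 3 libraries for each group this check could not exclude pairing. With the replicate block, 15 members were higher and 5 lower between the sorts under DMSO, 15 and 5 under EPZ5676, and 1 and 3 with treatment in high cells. The 2 alternatives that combine DMSO bulk replicate 1 with the covariate or the 6 libraries were chosen after seeing the data. Other scaling moved the median of all genes by at most 0.07 on the log2 scale. Depth limits ABCG1, which had 0 to 3 reads in each library.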
